A study of Mus musculus with 6 samples.

Results

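The genes described here are 10 cytokine receptor and ligand genes, measured by single-cell RNA sequencing in mouse mammary tumours. They are genes of the common gamma-chain and IL-12 families together with Il18 and its receptor gene Il18r1, which belong to neither family. They were taken by symbol, 10 of the 30406 genes shared by all libraries, and no measured value entered the choice. Il2ra, Il2rb, Il2rg, Il21r, Il15ra, Il18r1, Il12rb1 and Il12rb2 encode receptor chains, and Il15 and Il18 encode ligands. Tumours were grown by injecting Py8119 mouse mammary tumour cells into female mice, either knockout (KO) or wild type (WT) for Mtdh, and live CD45+ cells, that is leucocytes, were sorted 4 weeks later. There were 6 libraries, 1 for each group: intact KO mice; irradiated KO hosts given KO marrow (KO-to-KO, marrow named first and host second); KO hosts given WT marrow (WT-to-KO); WT hosts given KO marrow (KO-to-WT); intact WT mice; and WT hosts given WT marrow (WT-to-WT). Transplanted mice received the tumour cells 8 weeks after their marrow, so that the leucocytes came largely from the marrow and the other cells from the host; no label tells apart host leucocytes that outlived irradiation. The injected tumour cells were the same line in all groups. The strain, the age, how the Mtdh allele was made and how many mice went into a library are not given in the sources used here.

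Cytokines that signal through the common gamma chain (Il2rg) drive the growth, survival and effector function of T and NK cells. IL-2 and IL-15 share Il2rb and Il2rg. Il2ra adds high affinity for IL-2, and Il15ra is mostly used in trans, holding IL-15 on the surface of a myeloid cell for a neighbouring lymphocyte. IL-21 uses Il21r with the same common chain. IL-12 (Il12rb1 with Il12rb2) and IL-18 (Il18r1) act together to make T and NK cells release interferon-gamma, which in turn acts on tumour macrophages.

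In the libraries 40418 cells passed the filters, 5750 to 8143 per library, with total counts of 85616443 to 142779550 UMIs (unique molecular identifiers, 1 per captured transcript). Cells were assigned to 13 classes by marker genes that include none of the 10, and 82.54% of the cells fell in a class. Of 28 markers not used for the assignment, 26 were highest in their own class. Ccr2 of monocytes was highest in regulatory T cells and Flt3 of type 2 dendritic cells in mature dendritic cells. CD8 T cells numbered 73 to 1246 per library, NK cells 15 to 109, mature dendritic cells 25 to 64 and macrophages 3555 to 5275. The targeted gene Mtdh followed the marrow label in macrophages, with levels of 15.5 to 23.4 CPM (UMIs of the gene summed over a class in a library, divided by all its UMIs and multiplied by 1000000) in the 3 libraries with KO marrow, against 112 to 116 CPM in the 3 with WT marrow. One class went against it: mature dendritic cells of the KO-to-WT library had 138 CPM of Mtdh. Mesenchymal-like cells, which passed the sort although Ptprc (CD45) was at 6.99 to 11.8 CPM in them, had 373 to 469 CPM of Mtdh in every library. The intact libraries were made with another Cell Ranger version than the transplanted ones, so the effect of transplantation and that of the software cannot be told apart. Each fit carries a term for it. With 1 library per group the error comes from how far the libraries depart from the fitted model, and nothing in the labels says whether that spread is biological or technical.

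The 10 genes lie, in the RefSeq annotation of GRCm38.p6, at chr2:11642792-11693194 (Il2ra), chr15:78479256-78511621 (Il2rb), chrX:101264385-101268255 (Il2rg), chr7:125603252-125634397 (Il21r), chr2:11705172-11733985 (Il15ra), chr1:40465552-40500854 (Il18r1), chr8:70808360-70823542 (Il12rb1), chr6:67285986-67376293 (Il12rb2), chr8:82331624-82403252 (Il15) and chr9:50554700-50581841 (Il18). Because several of them were high together in macrophages of the same libraries, their start regions were searched for the letters TTCNNNGAA, the gamma-activated site that STAT factors bind, and GAAANNGAA, a core of the interferon regulatory factor element, on both strands. Both hold the letters GAA, so their matches can overlap. RefSeq start windows of 250 bases were found for 7 of the 10 genes, 10 windows in all; Il15, Il12rb1 and Il2rb have none in the table. The first motif was in 2 of the 10 windows and in 7.04% of 32536 different windows of the genome, the second in 1 of the 10 and in 7.15%. Below are the windows of Il12rb2 (minus strand, chr6:67376189-67376438), with a TTCNNNGAA match 123 bases before the start, and of Il15ra (plus strand, chr2:11705043-11705292), with the second motif on the opposite strand 149 bases before the start, both in capitals. Those of Il2ra (plus strand, chr2:11642542-11642791) and Il2rg (minus strand, chrX:101268256-101268505) hold neither and are shown because both genes were higher in macrophages in the comparison of both-KO libraries described further on.
Il12rb2: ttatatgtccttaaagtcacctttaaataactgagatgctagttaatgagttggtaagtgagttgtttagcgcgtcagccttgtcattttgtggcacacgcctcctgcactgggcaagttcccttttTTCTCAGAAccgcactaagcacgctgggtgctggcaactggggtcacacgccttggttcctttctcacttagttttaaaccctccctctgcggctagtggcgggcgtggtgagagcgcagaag
Il15ra: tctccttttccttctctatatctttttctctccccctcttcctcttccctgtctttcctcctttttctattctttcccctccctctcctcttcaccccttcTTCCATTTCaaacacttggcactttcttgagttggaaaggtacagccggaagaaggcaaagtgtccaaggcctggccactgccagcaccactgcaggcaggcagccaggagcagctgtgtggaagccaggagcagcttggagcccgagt
Il2ra: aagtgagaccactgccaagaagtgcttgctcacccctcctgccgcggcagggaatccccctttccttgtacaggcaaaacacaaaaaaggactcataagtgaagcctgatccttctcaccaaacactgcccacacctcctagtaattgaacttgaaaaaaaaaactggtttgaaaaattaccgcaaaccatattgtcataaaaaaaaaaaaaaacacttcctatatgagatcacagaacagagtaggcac
Il2rg: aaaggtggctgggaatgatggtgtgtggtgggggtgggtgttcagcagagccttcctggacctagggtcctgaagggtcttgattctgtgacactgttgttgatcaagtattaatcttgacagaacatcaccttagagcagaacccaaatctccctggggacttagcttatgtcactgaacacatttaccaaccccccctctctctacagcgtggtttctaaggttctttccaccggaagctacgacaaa
The other match of the first motif was at the third annotated start of Il18r1, where the window held it 219 and 152 bases before the start. A match is a run of letters and not a measured binding site.

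Each gene had its own distribution over the classes. Il2rg, the shared chain, was present in every lymphoid class, at 465 ± 128 CPM in regulatory T cells (SD, n = 5 libraries with at least 10 cells), 355 ± 30.9 in CD4 T cells, 336 ± 55.0 in gamma-delta T cells (n = 4), 296 ± 9.81 in CD8 T cells and 272 ± 49.4 in NK cells (n = 6). These neighbours overlapped within their SDs. It was lower but present in type 2 and mature dendritic cells, monocytes, macrophages and neutrophils, and lowest among leucocytes in type 1 dendritic cells. Il2rb, the signalling chain shared by IL-2 and IL-15, was highest in NK cells at 798 ± 55.5 CPM and reached 458 ± 244 in CD8 T cells, 434 ± 194 in gamma-delta T cells, 363 ± 88.7 in regulatory T cells and 234 ± 124 in CD4 T cells. The 4 T cell classes overlapped within their SDs, and the NK level was the steadiest of the 5. Il2ra, the alpha chain, stood at 627 ± 164 CPM in regulatory T cells, which carry it constitutively, and at 273 ± 117 in gamma-delta T cells, 136 ± 40.02 in mature dendritic cells and 77.8 ± 18.6 in CD4 T cells. Regulatory T cells lay above the next class by more than the SDs, and the ranges over libraries of the others overlapped their neighbours. In CD8 T cells and NK cells Il2ra was at 33.1 ± 17.8 and 21.6 ± 11.2 CPM, which overlap.

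**Figure D1:**
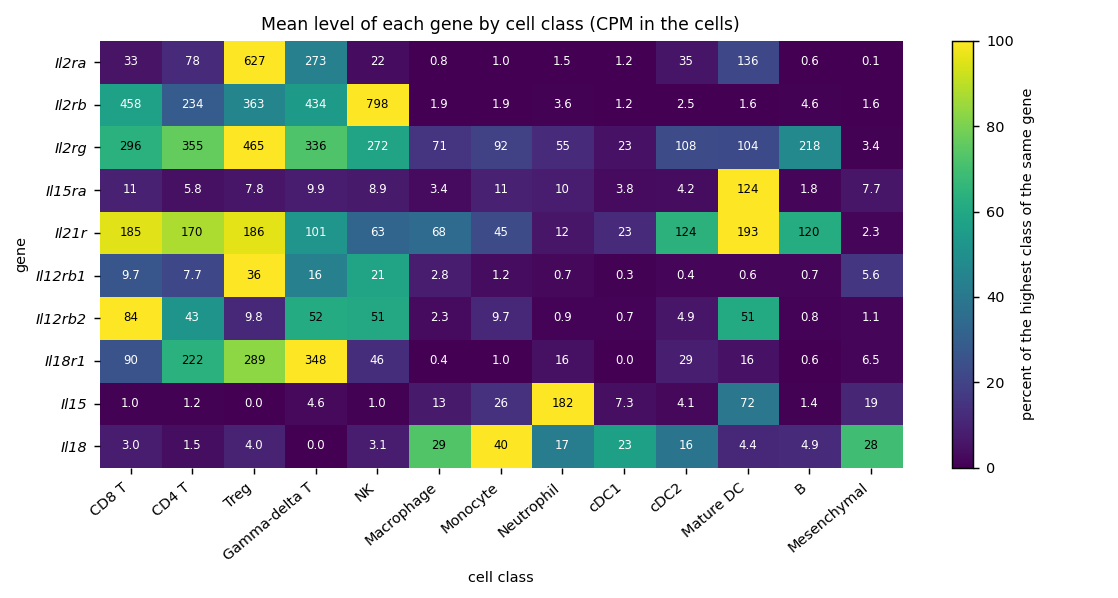
Mean level of each gene in each class (rows, genes; columns, classes; the number in a cell is the mean CPM over the libraries with at least 10 cells of the class, and the colour is that mean as a percent of the gene's own highest class). Il2rb was highest in NK cells at 798 CPM, Il2ra in regulatory T cells at 627 CPM, Il15ra in mature dendritic cells at 124 CPM and Il15 in neutrophils at 181.5 CPM.

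Among the other receptors, Il21r was spread most widely, with 193 ± 87.5 CPM in mature dendritic cells, 186 ± 40.6 in regulatory T cells, 185 ± 88.6 in CD8 T cells and 170 ± 110 in CD4 T cells, all within their SDs of each other, and with 67.6 ± 11.8 CPM in macrophages. Il12rb2, the chain that IL-12 needs for signalling, averaged 83.9 CPM in CD8 T cells and 43.4 to 51.6 CPM in CD4 T, NK, mature dendritic and gamma-delta T cells, and varied widely between libraries, with an SD of 82.2 CPM in CD8 T cells and 59.5 CPM in NK cells. Il12rb1, the chain shared with the IL-23 receptor, averaged 35.9 ± 25.6 CPM in regulatory T cells, 20.9 ± 8.44 in NK cells and 9.66 ± 4.56 in CD8 T cells, each overlapping the next. Il18r1 was led by gamma-delta T cells (348 ± 305 CPM, n = 4), regulatory T cells (289 ± 249, n = 5) and CD4 T cells (222 ± 96.4), whose SDs overlap, and was not seen at all in type 1 dendritic cells. Il15ra was at 124 ± 74.9 CPM in mature dendritic cells, against a next highest class mean of 11.3 ± 3.57 CPM in CD8 T cells.

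Receptor partners were also read in single cells after each cell was thinned to 2000 UMIs, which left out 2306 shallower cells. A UMI of Il2rb was found in a mean of 79.1% of NK cells (72.5% to 92.2% over 6 libraries), compared with 0.364% of macrophages, a class taken as background (99.2% and 2.97% without thinning). The pair Il2rb and Il2rg was seen together in 38.2% of NK cells, 32.4% of regulatory T cells, 20.6% of CD8 T cells and 16.7% of CD4 T cells, against 0.073% of macrophages. Without thinning the pair was seen in 89.2% of NK cells and 66.4% of CD8 T cells, against 2.12% of macrophages. If the chains were independent of each other within a library, 38.5% of NK cells and 21.0% of CD8 T cells would have held both. All chains of the high-affinity IL-2 receptor (Il2ra, Il2rb and Il2rg) were seen in 20.7% of regulatory T cells (7.69% to 38.8%, 5 libraries), against 20.1% if independent, and in 1.64% of CD8 T cells (47.5% and 12.3% without thinning). Both IL-12 receptor chains were caught in 0.480% of NK cells after thinning and in 6.92% before it.

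In the tests across genotypes, host and marrow were fitted as separate terms over all 6 libraries, and a further fit set the 2 libraries in which both host and marrow were KO (intact KO and KO-to-KO) against the other 4. That last contrast had been chosen in an earlier look at these data, so its p-values take no account of the choice. Of the 100 combinations of 10 genes and 10 fitted classes, 62 passed the count filter. With host genotype 1 of the 62 was called at an adjusted p under 0.05 (edgeR quasi-likelihood test, Benjamini-Hochberg), with marrow genotype none, and with both KO 17, all of them higher. The background over all genes and the same classes was 0.198% for host, 0.0441% for marrow and 4.61% for both KO, of which 2.48% higher. For marrow genotype, at an unadjusted edgeR p under 0.05, the members past it numbered 0 of 8 in CD8 T cells, 0 of 7 in NK cells and 3 of 10 in macrophages. They were 2 of 3 in type 1 dendritic cells, 1 of 4 in type 2 and 1 of 6 in mature dendritic cells. There were 1 of 6 in CD4 T cells, 1 of 5 in monocytes, 1 of 4 in neutrophils and 1 of 9 in mesenchymal-like cells. Over all genes 2.95% (CD8 T cells) to 5.37% (NK cells) passed, with 4.45% in macrophages and 4.64% in type 1 dendritic cells. DESeq2 called no member for marrow genotype in the T, NK and myeloid classes. With host genotype DESeq2 called 3 combinations in myeloid classes that edgeR did not, Il2ra, Il2rg and Il12rb1 in macrophages, with adjusted p of 0.00935, 0.00886 and 0.00405 against 0.983 each in edgeR. The share of all genes that DESeq2 called was not counted, so its calls have no background here.

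CD8 T cells of KO hosts had more Il2rb. It stood at 565 CPM in the intact KO, 876 in the KO-to-KO and 478 in the WT-to-KO library, against 302 in the KO-to-WT, 195 in the intact WT and 330 in the WT-to-WT library. The 3 KO-host libraries all lay above the 3 WT-host libraries, and KO was higher in each of the 3 pairs of libraries. The intact pair differs in marrow as well as host genotype, and the transplanted pairs in host genotype alone. The log2 fold change was 1.02 ± 0.20 (SE; edgeR adjusted p = 0.0283), 1 of 8 members tested in this class, where 1.54% of all genes were called. The same direction held in the share of CD8 T cells with an Il2rb UMI at equal depth, which was 55.9%, 76.3% and 52.4% in the intact KO, KO-to-KO and WT-to-KO libraries. The KO-to-WT, intact WT and WT-to-WT libraries had 35.3%, 22.5% and 45.7%. The 3 KO-host libraries were again the highest. Without thinning the shares were 78.1%, 93.6% and 86.6% in the intact KO, KO-to-KO and WT-to-KO libraries. The KO-to-WT, intact WT and WT-to-WT libraries had 70.3%, 52.0% and 77.1%. Thinning kept 299 of 306, 1182 of 1246 and 82 of 82 cells in KO hosts, and 235 of 236, 71 of 73 and 138 of 140 in WT hosts. The call rested on the whole set of libraries. The adjusted p was 0.150 in the transplanted libraries alone, 0.452 (log2 fold change 0.54) without KO-to-WT, 0.0929 without intact KO, 0.0562 without intact WT and 0.0686 without WT-to-WT. The lowest log2 fold change among the alternatives reported here was 0.54, with an interaction term in the model. In that model the host term is the host effect under WT marrow alone, a different quantity from the host effect of the main fit.

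The make-up of the CD8 class moved with host genotype as well. At full depth, with a median of 5812 to 8820 UMIs per CD8 T cell, cells with a UMI of Havcr2, a receptor of antigen-experienced T cells, were 26.1%, 39.5% and 37.8% of CD8 T cells in the intact KO, KO-to-KO and WT-to-KO libraries. The KO-to-WT, intact WT and WT-to-WT libraries had 13.6%, 10.96% and 7.14%. Within Havcr2-positive CD8 T cells Il2rb was at 674, 910 and 684 CPM in the intact KO, KO-to-KO and WT-to-KO libraries, against 482, 386 and 337 CPM in the KO-to-WT, intact WT and WT-to-WT libraries, the last 2 from 8 and 10 cells. The groups did not overlap there, and the host effect of 0.80 on the log2 scale had an edgeR adjusted p of 0.314. In CD8 T cells without a Havcr2 UMI, fitted apart after the data had been seen, Il2rb was at 503, 845 and 338 CPM in the intact KO, KO-to-KO and WT-to-KO libraries, against 272, 167 and 329 CPM in the KO-to-WT, intact WT and WT-to-WT libraries. These groups did not overlap either, though WT-to-KO was barely above WT-to-WT, and the host effect of 0.87 was not called (adjusted p = 0.456). Over all genes 0.523% were called with host genotype in the Havcr2-positive and 0.384% in the Havcr2-negative cells. The part of this make-up in the Il2rb result of the whole class was not tested. The other receptors in CD8 T cells were not called with host genotype. Il12rb2 (0.86, edgeR adjusted p = 0.206), Il21r (0.64, 0.130) and Il18r1 (0.49, 0.321) had higher values in 3 of 3 pairs. Il2ra (22.3 against 33.5 CPM) and Il12rb1 (11.7 against 13.8 CPM) were lower in WT-to-KO than in WT-to-WT. Il15ra was lower in KO-to-KO (9.5 CPM) than in KO-to-WT (13.05 CPM). In their remaining pairs these genes were higher in the KO host. How many of all genes were higher in 3 of 3 pairs was not counted. Il2rg lay in a narrow range, with KO hosts between 283 and 295 CPM and WT hosts between 299 and 307 CPM (-0.12 ± 0.16, edgeR adjusted p = 0.838).

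When both host and marrow were KO, 3 of 8 members tested in CD8 T cells were higher, in a class where 4.15% of all genes were called and 1.55% were called higher. They were Il2rb (log2 fold change 1.30 ± 0.18, edgeR adjusted p = 0.00262), Il12rb2 (1.06 ± 0.19, 0.00887) and Il21r (0.89 ± 0.16, 0.00887). Il21r, the receptor chain for IL-21 from helper T cells, was at 343 and 228 CPM in the intact KO and KO-to-KO libraries, against 144, 117, 170 and 107 CPM in the WT-to-KO, KO-to-WT, intact WT and WT-to-WT libraries, with no overlap. Il12rb2 was at 240 and 63.8 CPM in the intact KO and KO-to-KO libraries. The WT-to-KO, KO-to-WT, intact WT and WT-to-WT libraries had 36.3, 22.8, 106 and 34.5 CPM. Here the groups overlap, since the intact WT library lay above KO-to-KO. Intact KO was the higher of the intact libraries and KO-to-KO the highest of the transplanted ones. Il2ra, at 63.5 and 42.6 CPM in the 2 both-KO libraries and at 15.7 to 33.5 CPM in the other 4, missed the threshold (1.02 ± 0.28, adjusted p = 0.0596). Il2rb was still called in the transplanted libraries alone (1.19, adjusted p = 0.0244) and lost its call without KO-to-KO (1.51, 0.0818). The Il12rb2 call was lost without intact KO (0.0999), intact WT (0.0747) or KO-to-KO (0.154) and in the transplanted libraries alone (0.0869). The Il21r call was lost without intact KO (0.0820), intact WT (0.0726), KO-to-KO (0.162) or KO-to-WT (0.0540) and in the transplanted libraries alone (0.0611).

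**Figure D2:**
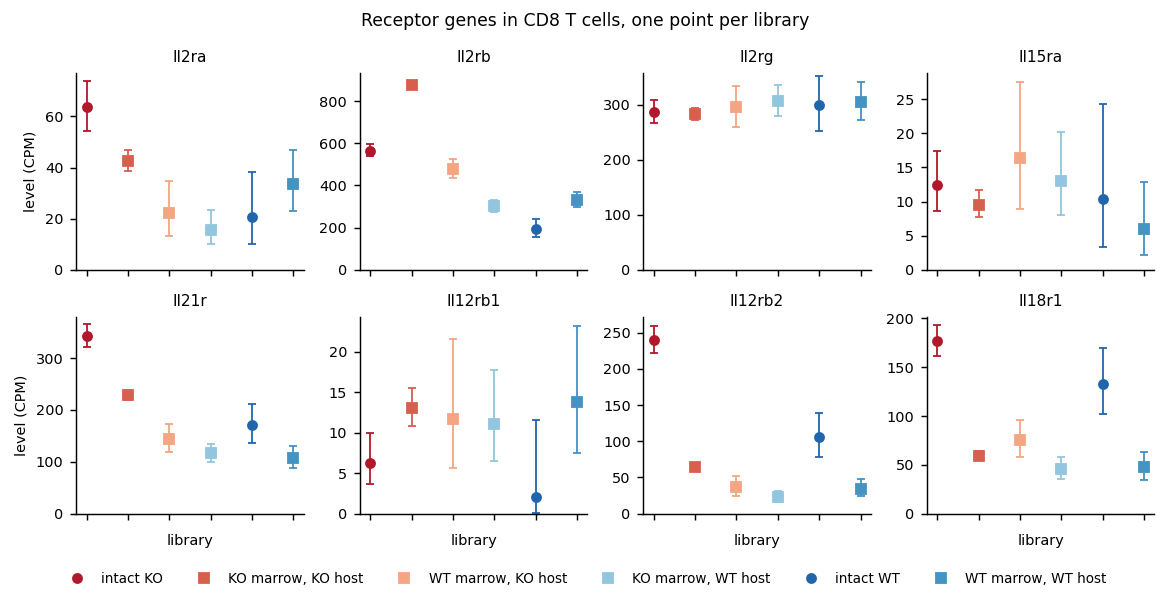
Level of the 8 receptor genes in CD8 T cells (y axis, CPM of the summed UMIs; 1 point per library, KO hosts left of WT hosts; bars, 95% Poisson intervals, which cover counting error only). The 3 KO-host libraries lay between 478 and 876 CPM for Il2rb, above the 195 to 330 CPM of the 3 WT-host libraries, while all 6 libraries lay between 283 and 307 CPM for Il2rg.

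The Havcr2-positive and Havcr2-negative CD8 T cells were also fitted apart on the both-KO contrast, a choice made after the data had been seen. In the Havcr2-negative cells the same 3 members as in the whole class were called by edgeR, Il2rb (log2 fold change 1.43, adjusted p = 6.84e-05), Il21r (0.80, 0.0108) and Il12rb2 (0.89, 0.0176), of 8 tested, where 4.87% of all genes were called. In the Havcr2-positive cells none of 6 was called, against 0.182% of all genes, in a fit with as few as 8 cells in a library. Il2rb had a log2 fold change of 0.84 there and an edgeR adjusted p of 0.307. At an unadjusted p under 0.05 there were 3 of 6 members and 7.07% of all genes in the Havcr2-positive cells, against 4 of 8 members and 16.4% of all genes in the Havcr2-negative cells. Whether the 2 subsets differ in their fold changes was not tested.

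In CD4 T cells Il21r was higher on the both-KO contrast (log2 fold change 1.39 ± 0.26, edgeR adjusted p = 0.0232), 1 of 6 members tested, with 0.297% of all genes called. It was at 345 and 259 CPM in the intact KO and KO-to-KO libraries, against 70.1, 109, 152 and 81.6 CPM in the WT-to-KO, KO-to-WT, intact WT and WT-to-WT libraries, with no overlap. DESeq2 gave an adjusted p of 0.0617 and a stricter gate 0.257, and the call was lost without intact KO (0.0618), KO-to-KO (0.225) or WT-to-KO (0.0602). In NK cells none of 7 members was called in any contrast, against 0.588% of all genes for both KO. At an unadjusted p under 0.05 there were 2 of 7 for both KO and 0 of 7 for host and for marrow genotype, where 7.38%, 3.0% and 5.37% of all genes passed. Il2rb in NK cells was at 727, 853 and 859 CPM in the intact KO, KO-to-KO and WT-to-KO libraries, against 820, 742 and 789 CPM in the KO-to-WT, intact WT and WT-to-WT libraries, so the groups overlapped and the range over all 6 was narrow. Regulatory T cells and gamma-delta T cells had under 10 cells in at least 1 library and were not tested. Il18r1 in regulatory T cells was at 557 CPM in intact KO and 566 CPM in intact WT, compared with 92.2 to 132 CPM in the transplanted libraries, where transplantation and the Cell Ranger version cannot be told apart.

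Macrophages of the both-KO libraries had more of 8 of the 10 genes, in a class where 17.5% of all genes were called and 9.29% were called higher. The median log2 fold change of the 10 was 1.69. Il12rb1 was at 5.55 and 8.69 CPM in the intact KO and KO-to-KO libraries. The WT-to-KO, KO-to-WT, intact WT and WT-to-WT libraries had 0.955, 0.673, 0.346 and 0.450 CPM. The 2 both-KO libraries were far above the rest, with a log2 fold change of 3.87 ± 0.29 (edgeR adjusted p = 0.00205). Il2rg was at 99.7 and 148 CPM in the intact KO and KO-to-KO libraries. The WT-to-KO, KO-to-WT, intact WT and WT-to-WT libraries had 56.6, 51.5, 32.4 and 38.1 CPM. It did not overlap either, at 1.72 ± 0.16 (adjusted p = 0.00337), and the next library down was that of KO hosts with WT marrow. Il2rb was at 1.80 and 7.09 CPM in the intact KO and KO-to-KO libraries, against 0.681, 0.797, 0.372 and 0.852 CPM in the WT-to-KO, KO-to-WT, intact WT and WT-to-WT libraries (2.97 ± 0.23, adjusted p = 0.00219). Il2ra was at 1.66 and 1.99 CPM in the intact KO and KO-to-KO libraries, against 0.516, 0.213, 0.168 and 0.155 CPM in the WT-to-KO, KO-to-WT, intact WT and WT-to-WT libraries (3.02 ± 0.47, adjusted p = 0.0115). For neither gene did the 2 both-KO libraries overlap with the other 4. Il12rb1 UMIs were found in 9.27% and 10.7% of macrophages in intact KO and KO-to-KO, against 1.90%, 0.928%, 0.701% and 0.725% in WT-to-KO, KO-to-WT, intact WT and WT-to-WT. After thinning they were in 1.41% and 2.09% in intact KO and KO-to-KO, against 0.245%, 0.0853%, 0.0771% and 0.0797% in WT-to-KO, KO-to-WT, intact WT and WT-to-WT. These 4 genes were called under each of the 12 alternatives run for them, leaving out any 1 library included. The stricter gate among the 12 left the macrophage class unchanged, so it could not alter these calls.

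The other 4 macrophage calls were Il12rb2 (2.46 ± 0.36, edgeR adjusted p = 0.00967), Il18r1 (1.66 ± 0.40, 0.0398), Il15ra (0.98 ± 0.22, 0.0298) and Il21r (0.51 ± 0.10, 0.0190). Il21r was at 87.6 and 75.4 CPM in the intact KO and KO-to-KO libraries, against 65.7, 58.1, 59.5 and 59.2 CPM in the WT-to-KO, KO-to-WT, intact WT and WT-to-WT libraries, without overlap. Il12rb2 was carried mostly by the intact KO library, at 9.42 CPM, with 1.72 CPM in KO-to-KO and 0.296 to 1.46 CPM in the other 4. Il18r1 was under 1 CPM in every library, at 0.93 and 0.65 CPM in intact KO and KO-to-KO and 0.10 to 0.39 CPM in the other 4. Il15ra was at 5.18 and 5.03 CPM in intact KO and KO-to-KO, with intact WT close at 4.20 CPM. The WT-to-KO, KO-to-WT and WT-to-WT libraries had 2.15, 2.23 and 1.89 CPM of Il15ra. These calls were less stable. Il18r1 lost its call without any 1 of 5 libraries (adjusted p of 0.0788 without intact KO, 0.0705 without intact WT, 0.151 without KO-to-KO, 0.0926 without KO-to-WT and 0.0566 without WT-to-KO) and in the transplanted libraries alone (0.0772). Il12rb2 lost it in Leiden clusters used in place of the marker classes (1.83, adjusted p = 0.0533). Il15ra lost it without KO-to-KO (0.44, adjusted p = 0.218), KO-to-WT (0.0772), WT-to-KO (0.0902) or WT-to-WT (0.0644). Il21r lost it without KO-to-WT (0.0588). With host or marrow genotype alone no member was called in macrophages by edgeR, where 0.0% of 14981 genes were called in either term. At an unadjusted p under 0.05 there were 682 genes for host and 667 for marrow genotype, and 4 and 3 of the 10 members.

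**Figure D3:**
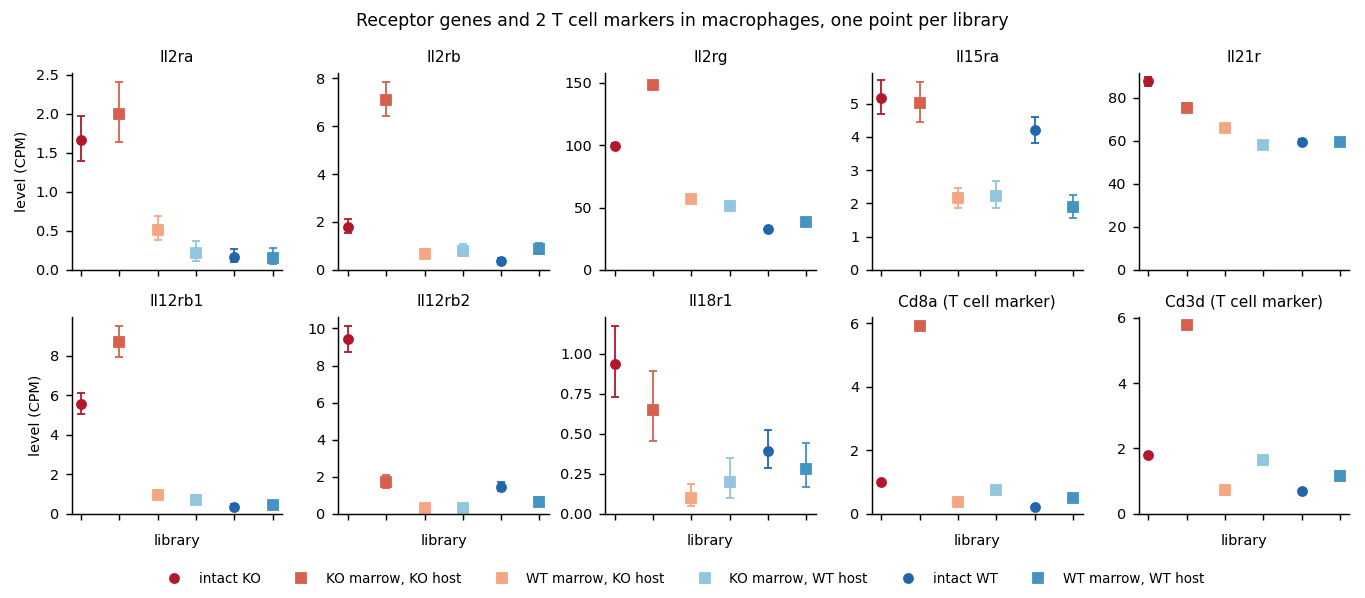
Level of the 8 receptor genes and of the T cell genes Cd8a and Cd3d in macrophages (y axis, CPM; 1 point per library, both-KO libraries first; bars on the receptor genes, 95% Poisson intervals). Il12rb1 lay at 5.55 and 8.69 CPM in the both-KO libraries, above 0.346 to 0.955 CPM in the other 4, and Cd8a was highest in the KO-to-KO library at 5.91 CPM.

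T cell transcripts in the macrophage class moved in the same libraries. The summed level of 6 T cell markers in macrophages was 10.0 and 27.8 CPM in the intact KO and KO-to-KO libraries, with each of the 6 detected. The WT-to-KO, KO-to-WT, intact WT and WT-to-WT libraries had 3.35, 7.35, 3.66 and 5.58 CPM. Set against CD8 T cells of the same library, the median of 8 T cell markers in macrophages was 0.170% and 0.512% of the CD8 level in the intact KO and KO-to-KO libraries, against 0.0614%, 0.141%, 0.0625% and 0.102% in the WT-to-KO, KO-to-WT, intact WT and WT-to-WT libraries. The same ratio for Il2rb, 0.319% and 0.809% in intact KO and KO-to-KO and 0.142% to 0.264% in the other 4, was within the range of those markers in intact KO and KO-to-KO (0.102% to 0.683% and 0.252% to 1.02%). For Il18r1 the ratio was 0.527% in intact KO, within that range, and 1.09% in KO-to-KO, just above it. It was far outside that range for Il12rb1, at 88.9% and 66.7% in intact KO and KO-to-KO against 3.26% to 16.7% in the other 4. So it was for Il2rg, at 34.8% and 52.5% in intact KO and KO-to-KO against 10.8% to 19.2% in the other 4. The Il12rb1 ratios rest on low CD8 levels, 6.24 CPM in intact KO and 2.08 CPM in intact WT. Il12rb1 was also higher in regulatory T cells (mean 35.9 CPM) and NK cells (20.9 CPM) than in CD8 T cells (9.66 CPM). Il2ra was at 2.62% and 4.67% and Il12rb2 at 3.92% and 2.70% in intact KO and KO-to-KO. CD8 T cells had little Il2ra, with a mean of 33.1 CPM against 627 CPM in regulatory T cells and 273 CPM in gamma-delta T cells. A ratio to CD8 T cells thus does not cover Il2ra transcripts from those classes. The part of T cell transcripts in the macrophage values of Il2rb, Il18r1, Il2ra and the other receptors was not tested.

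The state of the macrophages also differed. At full depth, with a median of 14010 to 20260 UMIs per macrophage, cells with a UMI of Cxcl9, a chemokine induced by interferon-gamma, were 77.6% and 80.8% of macrophages in the intact KO and KO-to-KO libraries, against 21.4%, 11.6%, 13.7% and 2.98% in the WT-to-KO, KO-to-WT, intact WT and WT-to-WT libraries. Among Cxcl9-positive macrophages Il12rb1 was at 6.16 and 9.32 CPM in intact KO and KO-to-KO, against 2.61, 1.66, 0.763 and 0.427 CPM in WT-to-KO, KO-to-WT, intact WT and WT-to-WT, the last from 1 UMI. Among Cxcl9-negative macrophages it was at 3.30 and 4.81 CPM in intact KO and KO-to-KO, against 0.421, 0.514, 0.272 and 0.450 CPM in WT-to-KO, KO-to-WT, intact WT and WT-to-WT. Il2rg likewise was higher in the both-KO libraries in each subset, at 111 and 156 CPM against 52.4 to 84.4 CPM in Cxcl9-positive cells, and at 57.8 and 101 CPM against 28.9 to 47.6 CPM in Cxcl9-negative cells. The groups overlapped in neither subset, and these values were not tested.

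Il2rg also rose in monocytes and neutrophils. On the both-KO contrast it was called in monocytes (1.15 ± 0.19, edgeR adjusted p = 0.0214) and in neutrophils (1.85 ± 0.34, 0.0353), each the only member called of 5 and 4 tested, with 1.12% and 0.881% of all genes called. In neutrophils it was at 61.0 and 133 CPM in the intact KO and KO-to-KO libraries. The WT-to-KO, KO-to-WT, intact WT and WT-to-WT libraries had 40.6, 55.4, 16.2 and 23.0 CPM. In monocytes it was at 104 and 177 CPM in the intact KO and KO-to-KO libraries, against 59.5 to 80.8 CPM in the other 4. Neither class overlapped between groups, but both calls leaned on the KO-to-KO library: without it the adjusted p was 0.537 (0.80) in monocytes and 0.171 in neutrophils, where leaving out WT-to-KO (0.126) or WT-to-WT (0.0984) also ended the call. A stricter gate gave 0.440 in monocytes. Relative to CD8 T cells of the same library, Il2rg was at 36.2% and 62.7% in monocytes of intact KO and KO-to-KO. The median of the 8 T cell markers there was 0.233% and 0.716%, against 0% to 0.0591% in the other 4. In neutrophils of intact KO and KO-to-KO it was at 21.3% and 47.2%, against 5.41% to 18.1% in the other 4. The T cell markers moved in the same neutrophil libraries, with a median of 0.417% and 0.945% of the CD8 level in intact KO and KO-to-KO, against 0% to 0.240% in the other 4. Their part in the monocyte and neutrophil results was not tested. In the dendritic cell classes no member was called on any contrast, with 0.450%, 1.64% and 0.203% of all genes called for both KO in type 1, type 2 and mature dendritic cells. At an unadjusted p under 0.05 there were 2 of 3, 3 of 4 and 2 of 6 members, where 10.4%, 12.6% and 9.27% of all genes passed.

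Mesenchymal-like cells, which had more Il12rb1 than macrophages in each library, gave 3 calls of 9 members on the both-KO contrast, with 2.65% of all genes called. Il12rb1 was at 9.55 and 15.8 CPM in the intact KO and KO-to-KO libraries, against 2.03, 1.59, 2.87 and 1.88 CPM in the WT-to-KO, KO-to-WT, intact WT and WT-to-WT libraries (2.66 ± 0.29, edgeR adjusted p = 0.00326; 1.80 to 3.10 and called under every alternative run). The both-KO libraries were the 2 highest by a wide gap. The median of the 8 T cell markers in the mesenchymal-like cells was 0.131% and 0.310% of the CD8 level in intact KO and KO-to-KO. The summed macrophage markers in these cells were at 1011 and 1034 CPM in intact KO and KO-to-KO, against 1456 to 2047 CPM in the other 4. In macrophages themselves the same sum was also lower, at 30820 and 38990 CPM in intact KO and KO-to-KO, against 49460 to 59390 CPM in the other 4. The part of T cell or macrophage transcripts in the mesenchymal-like values was not tested. Il21r (1.63 ± 0.33, adjusted p = 0.0377) stayed under 5 CPM, and Il15 (0.89 ± 0.18, 0.0387) was at 37.1 and 22.1 CPM in intact KO and KO-to-KO, against 12.5, 14.5, 20.7 and 9.58 CPM in WT-to-KO, KO-to-WT, intact WT and WT-to-WT. The Il21r call was lost without any 1 of the 6 libraries (adjusted p of 0.0656 to 0.225) and in Leiden clusters (0.85, 0.168). The Il15 call was lost without any 1 of the libraries except WT-to-WT (0.0565 to 0.144), and both calls were lost in the transplanted libraries alone (0.0656 for Il21r and 0.128 for Il15).

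**Figure D4:**
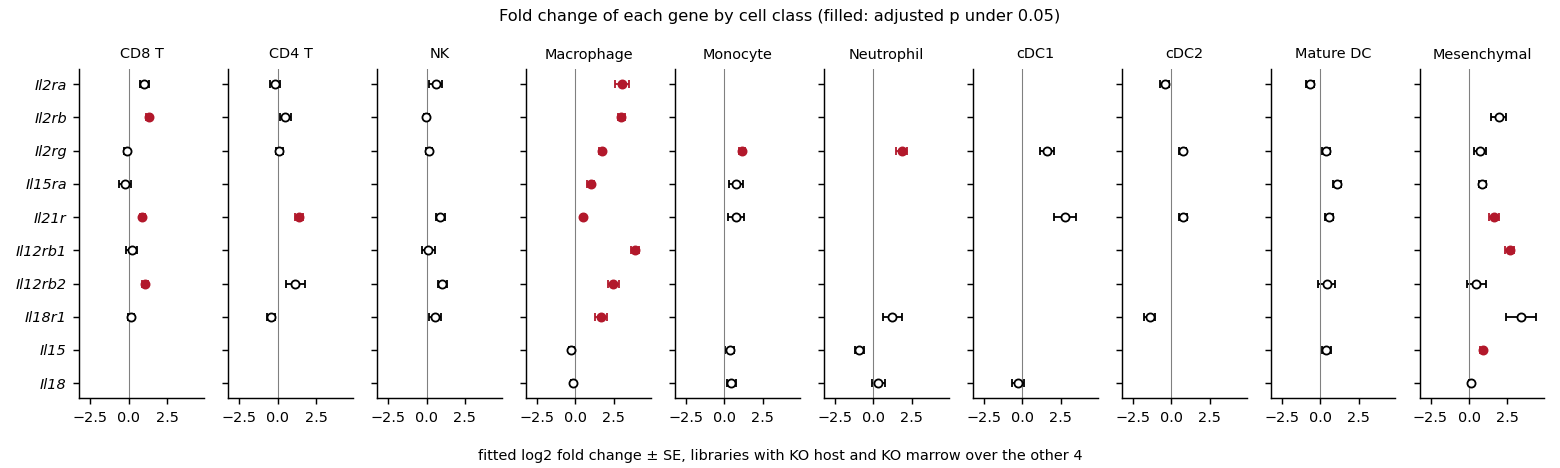
Log2 fold change of each gene on the both-KO contrast by class (x axis, log2 fold change, intact KO and KO-to-KO against the other 4 libraries, with transplantation as a term; bars, SE; filled points, edgeR adjusted p under 0.05). The filled points are the 17 calls, all to the right of 0, and 8 of them are in macrophages.

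Il15, the ligand for Il2rb and Il2rg, was highest in neutrophils, at 181.5 ± 107 CPM, followed by mature dendritic cells at 71.8 ± 33.9, monocytes at 26.2 ± 18.3, mesenchymal-like cells at 19.4 ± 9.91 and macrophages at 13.1 ± 5.93 CPM (SD, n = 6 each), each overlapping the next within the SDs. In neutrophils it was at 190, 80.1 and 105 CPM in the intact KO, KO-to-KO and WT-to-KO libraries. The KO-to-WT, intact WT and WT-to-WT libraries had 144, 380 and 190 CPM. The KO-host library was the lower in each of 3 pairs, though the groups overlapped, and the log2 fold change of -0.86 ± 0.26 was not called (edgeR adjusted p = 0.570). It was called in the transplanted libraries alone (-0.92, adjusted p = 0.0187), without intact KO (-0.93, 0.0247) and without intact WT (-0.94, 0.0178). In mature dendritic cells Il15 was at 115, 76.6 and 37.5 CPM in the intact KO, KO-to-KO and WT-to-KO libraries. The KO-to-WT, intact WT and WT-to-WT libraries had 49.2, 108 and 43.6 CPM. In macrophages it was between 9.56 and 24.8 CPM, with the highest value in intact WT. Neither class was called in any contrast.

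Il15ra, which presents IL-15, was read mainly in mature dendritic cells, the Ccr7 and Fscn1 cells that migrate to lymph nodes. It was at 237 and 176 CPM in the intact KO and KO-to-KO libraries, against 52.5, 60.9, 150 and 69.8 CPM in the WT-to-KO, KO-to-WT, intact WT and WT-to-WT libraries. The both-KO libraries were the 2 highest, intact WT was next, and the log2 fold change of 1.08 ± 0.25 missed the threshold (edgeR adjusted p = 0.100). Without a count filter the adjusted p was 0.00741 and with a stricter gate 0.0397, while over the remaining alternatives it lay between 0.107 and 0.984, the highest without KO-to-KO. At equal depth 20.02% of mature dendritic cells had an Il15ra UMI (9.38% to 29.2%), and 5.82% had both Il15 and Il15ra (0% to 16.7%), against 3.19% if independent. Without thinning 46.6% had Il15ra and 26.5% both. The KO-to-WT library, whose mature dendritic cells had Mtdh at 138 CPM, lay between WT-to-KO and WT-to-WT in Il15ra. No member was called for an interaction of host and marrow genotype in any class. Over all genes 0 of 15927 were called in macrophages, 83 of 9533 in CD8 T cells and 111 of 6402 in mature dendritic cells. This fit left 1 residual degree of freedom, so the lack of a call says little. Among the members in macrophages the log2 effect ran from -0.09 (Il18) to 3.71 (Il12rb2). The lowest adjusted p, 0.1835, was that of Il15ra in mature dendritic cells, with a log2 effect of 1.80.

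Il18 encodes a cytokine stored as a precursor and released by inflammasomes. In macrophages it was at 24.0 and 28.5 CPM in the intact KO and KO-to-KO libraries, against 30.1, 30.4, 35.4 and 28.5 CPM in the WT-to-KO, KO-to-WT, intact WT and WT-to-WT libraries (-0.15 ± 0.11, edgeR adjusted p = 0.378), a narrow range. It was wider in monocytes, at 21.6 to 55.8 CPM over the 6 libraries, and in type 2 dendritic cells, at 7.64 to 38.6 CPM. In monocytes it averaged 40.4 ± 12.2 CPM, in macrophages 29.5 ± 3.68, in mesenchymal-like cells 28.0 ± 1.62 and in type 1 dendritic cells 22.9 ± 8.10, which overlap from one to the next. No contrast called Il18 in any class. Of the 3 genes of the ligand side (Il15, Il18 and Il15ra), 1 of 11 combinations with a myeloid class was called for both KO, Il15ra in macrophages, where 17.5% of all genes were called. None was called for host or marrow genotype by edgeR or DESeq2.

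**Figure D5:**
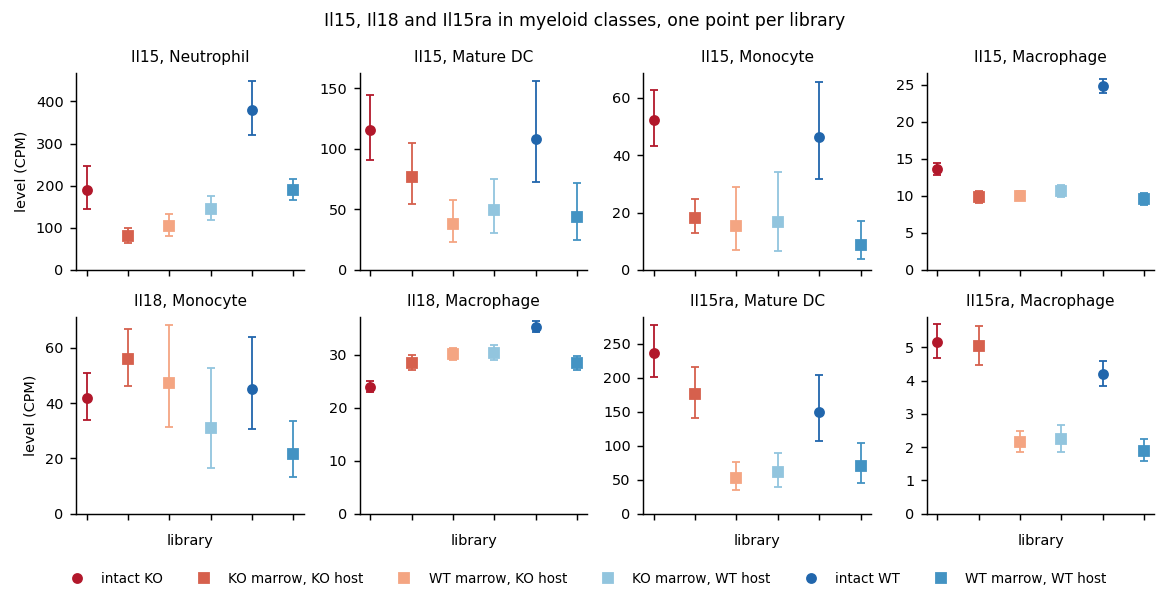
Level of Il15, Il18 and Il15ra in the myeloid classes where they were read (y axis, CPM; 1 point per library, KO hosts left of WT hosts; bars, 95% Poisson intervals). For Il15 in neutrophils the KO hosts lay between 80.1 and 190 CPM and the WT hosts between 144 and 380 CPM, and Il18 in macrophages between 24.0 and 35.4 CPM in all 6.

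Genes that work with these receptors were read in CD8 T cells on host genotype. Over all genes 1.54% were called in this class and term. Of 10 genes induced by the receptors 1 was higher and 1 lower, with a list median of -0.26, beside -0.0047 over all genes tested. Ifng, the interferon that IL-12 and IL-18 elicit, was at 162, 204 and 368 CPM in the intact KO, KO-to-KO and WT-to-KO libraries, against 22.2, 39.5 and 32.5 CPM in the KO-to-WT, intact WT and WT-to-WT libraries (3.17 ± 0.21, edgeR adjusted p = 3.02e-06). Bcl2, the survival gene, fell, with 548, 288 and 451 CPM in the intact KO, KO-to-KO and WT-to-KO libraries, against 564, 1518 and 565 CPM in the KO-to-WT, intact WT and WT-to-WT libraries (-0.83 ± 0.17, adjusted p = 0.0299). Mcl1, also abundant, was not called. Of 10 JAK and STAT genes, 1 was higher with a list median of 0.01. Stat3, a transducer of IL-21, was at 823, 328 and 206 CPM in the intact KO, KO-to-KO and WT-to-KO libraries, against 98.5, 243 and 110 CPM in the KO-to-WT, intact WT and WT-to-WT libraries (1.33 ± 0.20, adjusted p = 0.00353). Jak1 and Stat4 were not called. Il18rap, the second chain of the IL-18 receptor, rose (1.39 ± 0.27, edgeR adjusted p = 0.0211) and Il6st, the shared chain of the IL-6 and IL-27 receptors, fell (-1.74 ± 0.36, 0.0347), 2 of 3 tested of a list of 10, with Il27ra not called. Il6st was at 28.6, 8.19 and 10.55 CPM in the intact KO, KO-to-KO and WT-to-KO libraries. The KO-to-WT, intact WT and WT-to-WT libraries had 35.2, 64.4 and 11.8 CPM, so the groups overlapped. None of 3 tested of the other gamma-chain genes (Il7r, Il4ra and Il2) and none of 6 of the IL-18 maturation genes (Pycard, Aim2 and Casp1 the most abundant) was called.

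On the both-KO contrast in macrophages, Il18bp, the secreted decoy of IL-18, was at 58.2 and 95.8 CPM in the intact KO and KO-to-KO libraries, against 23.9, 16.6, 11.5 and 10.2 CPM in the WT-to-KO, KO-to-WT, intact WT and WT-to-WT libraries (2.54 ± 0.30, edgeR adjusted p = 0.00708). With Il27 (1.56, 0.0253) and Ebi3 (1.07, 0.0284), the chains of IL-27, that made 3 of 8 tested of the other IL-12 and IL-18 genes, in a class where 9.29% of all genes were called higher, while Il6st was not called. Of the genes induced by the receptors 3 of 9 rose, Socs1 (3.15, 0.00362), Cish (1.54, 0.0273) and Ifng, the last at under 1 CPM in each library, while Mcl1, Pim1 and Socs3 were not called. Of the IL-18 maturation genes 3 of 7 rose, against the same 9.29%, the inflammatory caspases Casp4 (1.28, 0.00118) and Casp1 (0.61, 0.00386) and the pore-forming Gsdmd (0.46, 0.0188), while Nlrp3 and Pycard were not called. Il7r (1.85, 0.0319) was the 1 of 4 other gamma-chain genes called, and Il4ra and Il2 were not.

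For each member the 2 genes most like it were sought among 8161 genes by Pearson r of log2(CPM + 1) over 69 sums of class and library, which share libraries and cell classes, so r is a description. Il2rb was most like Gzmb (r = 0.965) and Thy1 (0.963), Il2ra like Tnfrsf18 (0.881) and Ikzf4 (0.841), and Il2rg like Cd69 (0.903) and Sash3 (0.876). Il21r was most like another member, Il2rg (0.851), and Rasgrp1 (0.833). Il12rb1 was nearest to Sytl2 (0.804) and Gzmb (0.799), Il12rb2 to Tbx21 (0.735) and Gtpbp1 (0.733), and Il18r1 to Klk8 and Gstp3 (0.839 each). On the ligand side Il15 was nearest to Etf1 (0.804) and Slc44a1 (0.796), Il18 to Ifi207 (0.822) and Asah1 (0.819), and Il15ra, with the lowest r, to Rnf115 (0.707) and Pcgf5 (0.691).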

How the data were processed

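Per the labels' protocols, sorted cells were loaded at 15000 per channel on the 10x Genomics 3' v3.1 kit. The deposited matrices hold whole-number UMI counts per gene and barcode, made by the authors with Cell Ranger 7.0.1 (intact mice, 32285 genes) and 6.1.1 (transplanted mice, 31053 genes) per the file headers, on mm10 per the submitters' processing notes. The treatment of intronic reads is not stated in any source at hand. The libraries were joined on the Ensembl identifier (30406 genes). Of 41267 barcodes, 40418 with at least 500 UMIs, 200 genes and at most 15% mitochondrial counts were kept. Library pairs shared 8 to 25 barcodes, at most 0.348% of the smaller library.

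Cells were assigned to classes by UMI thresholds on lineage markers, with a cap on markers of other lineages. No doublet caller was run; 5 cells that met 2 gates were removed. UMIs were summed per class and library. Levels are CPM of these sums with exact 95% Poisson intervals, and cell shares have exact Clopper-Pearson intervals; both cover counting error only. Tests used edgeR 4.0.16 (TMM, filterByExpr, robust quasi-likelihood, R 4.3.3) in the 10 classes with at least 10 cells in every library, with Benjamini-Hochberg adjustment over all genes of a class and term. One model held host, marrow and transplantation terms, and the other both KO and transplantation. The SE is the log2 fold change over the square root of F. The code was tested on simulated data. Alternatives were DESeq2 1.42.0, its size factors, no count filter, a stricter gate, Leiden clusters (scanpy 1.11.5, 31 clusters), the transplanted libraries alone, an interaction term and each library left out. The members, gene lists and contrasts were chosen with earlier results of these data known. Named were all 10 members, each listed gene that passed (up to 6 a list) with the 3 most abundant of its list, and the 2 genes most like each member; some listed genes, and values that rest on them, are not reported here.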

Additional observations from a re-analysis of the deposited data

How the results depend on the processing

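Of 664 values of single genes under the other settings, 572 kept their side of the threshold, 53 lost a call, 39 gained one and 0 reversed. Only member results with an unadjusted p under 0.05 in the main edgeR fit were followed, which makes a reversal less likely. The stricter gate left the macrophage class unchanged. For receptors in T and NK cells, 1 gene and class was called with host genotype. There were 3 without a count filter, 0 in Leiden clusters, 0 in the transplanted libraries alone, and 0 to 4 with 1 library left out. With an interaction term there were 0, but there the host term is the host effect under WT marrow alone. With marrow genotype there were 0, and 0 to 1 with 1 library left out; with both KO 4, with 2 in the transplanted libraries alone and 1 to 5 with 1 library left out. For ligands and Il15ra in myeloid classes, host genotype gave 0, with 1 (lower) in the transplanted libraries alone and 0 to 1 with 1 library left out; marrow gave 0, and 0 to 1; both KO gave 1, with 2 without a filter, 2 with the stricter gate and 0 to 2 with 1 library left out. For the other receptors in myeloid classes, a family added after seeing the data, host genotype gave 0, with 3 in DESeq2, 1 without a filter, 1 in the transplanted libraries alone and 0 to 2 with 1 left out; marrow gave 0, with 1 without a filter, 1 in the transplanted libraries alone and 0 to 1; both KO gave 9, with 15 without a filter (14 higher, 1 lower) and 7 to 9. The cause of these moves was not tested, except that fewer libraries leave fewer residual degrees of freedom. The small classes limit depth: NK cells had as few as 15 cells in a library. No paired analysis was possible because the labels give no replicate numbers. The pairs counted in the text are libraries matched on transplantation. The transplanted pairs are also matched on marrow, while intact KO and intact WT differ in both host and marrow. The model holds marrow and transplantation as terms.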
